A study of Homo sapiens with 2 samples.

Results

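Chromatin accessibility was followed at 8 genes that mark naive human pluripotent cells: TFCP2L1, ESRRB, NR5A2, SUSD2, PRDM1, ALPG, OLAH and VENTX. They are 8 of the 19974 protein-coding genes in the gene table used. Every peak whose summit lay inside the hg38 body of such a gene, or within 50 kb of it, was taken. This gave 238 of the 295753 peaks of the primed library and 233 of the 299673 peaks of the hTBLC library. Peaks that overlapped or touched within a library were joined into 1 region, which left 184 of 242009 primed regions and 181 of 250859 hTBLC regions.

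The study set primed human embryonic stem cells against hTBLCs, its totipotent blastomere-like cells, both of the established embryonic stem cell line WIBR3. ATAC-seq cuts and tags DNA where chromatin is open, and each library was made from 50000 living cells. The title of the series ties the hTBLC state to spliceosomal repression, while the labels name no agent, dose, time or genetic change for either library. There was 1 library per state, so no test between the states was possible, and every interval below covers counting error within these 2 libraries only.

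Naive cells resemble the epiblast before implantation, and primed cells resemble the epiblast after it. In the naive state a network of transcription factors that includes TFCP2L1 and, in mouse above all, ESRRB and NR5A2 sustains self-renewal, and its genes fall silent or switch to other regulatory elements when cells become primed. SUSD2 is a surface protein used to sort naive human cells, ALPG encodes an alkaline phosphatase of the placental type, and OLAH encodes a thioesterase that releases fatty acids from their carrier. PRDM1 is a repressor known from germ cell specification and plasma cells, and VENTX is a homeobox factor.

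Start sites came from a RefSeq promoter table of build GRCh38.p14, which held 10 starts for 6 of the 8 genes. For SUSD2 and OLAH the ends of the gene body stand in for a start. The 250 bases before the start are shown for 5 starts: the one with the lowest ratio between the libraries (TFCP2L1), those with the highest coverage in primed (PRDM1 start 1) and in hTBLC (ESRRB start 3), the one with the highest ratio (VENTX), and the one with a primed-only region in the bases shown (ALPG). Each is written 5′ to 3′ on the strand of its gene. Capitals mark matches to the GC box GGGCGG, the TATA box TATAAA, the CCAAT box CCAAT and the CACCC box CACACCC, on either strand.
TFCP2L1, chr2:121285203-121285452, minus strand: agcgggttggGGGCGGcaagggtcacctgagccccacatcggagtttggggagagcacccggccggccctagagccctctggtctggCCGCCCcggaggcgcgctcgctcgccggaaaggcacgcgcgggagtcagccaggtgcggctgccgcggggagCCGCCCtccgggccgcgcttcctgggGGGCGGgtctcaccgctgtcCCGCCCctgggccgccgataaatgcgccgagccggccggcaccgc
ESRRB start 3, chr14:76375887-76376136, plus strand: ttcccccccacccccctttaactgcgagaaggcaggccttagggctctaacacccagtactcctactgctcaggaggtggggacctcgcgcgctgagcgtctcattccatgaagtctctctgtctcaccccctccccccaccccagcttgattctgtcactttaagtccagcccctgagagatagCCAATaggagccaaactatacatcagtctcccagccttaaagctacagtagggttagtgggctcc
PRDM1 start 1, chr6:106086086-106086335, plus strand: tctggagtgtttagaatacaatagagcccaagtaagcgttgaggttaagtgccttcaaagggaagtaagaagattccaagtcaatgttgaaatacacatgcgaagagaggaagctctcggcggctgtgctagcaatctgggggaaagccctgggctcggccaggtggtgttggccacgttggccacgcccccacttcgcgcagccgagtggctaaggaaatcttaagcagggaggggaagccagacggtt
ALPG, chr2:232406594-232406843, plus strand: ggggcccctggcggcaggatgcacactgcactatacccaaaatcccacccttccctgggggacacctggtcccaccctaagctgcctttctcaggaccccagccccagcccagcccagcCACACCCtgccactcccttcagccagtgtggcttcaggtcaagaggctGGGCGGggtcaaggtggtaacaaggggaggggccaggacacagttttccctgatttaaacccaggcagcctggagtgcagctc
VENTX, chr10:133237605-133237854, plus strand: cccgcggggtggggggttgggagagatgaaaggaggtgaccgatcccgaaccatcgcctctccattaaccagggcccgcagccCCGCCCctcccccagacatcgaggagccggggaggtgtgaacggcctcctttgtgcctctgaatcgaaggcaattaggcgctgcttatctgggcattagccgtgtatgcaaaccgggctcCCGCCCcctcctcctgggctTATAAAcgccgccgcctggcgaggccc

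The TFCP2L1 promoter was the richest in G and C of the 10, at 76.8%, with 32 CG dinucleotides and 5 GC boxes. Over all promoters in the table the median G and C content was 62% (quartiles 52% and 70.4%). VENTX lay near that median at 65.2%, with 2 GC boxes and a TATA box whose first base is at position -27 from the start. The ALPG promoter held 63.2% G and C but 2 CG dinucleotides, and ESRRB start 3 held 56.4% with a CCAAT box at -65. PRDM1 start 1, at 53.6%, had no match to any of the motifs searched.

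Across the 10 starts a GC box was found at 4, against 53.7% of all 22132 promoters of the same length. A TATA box was found at 3, against 9%, a CCAAT box at 2, against 32.7%, and a CACCC box at 1, against 7.01%. The octamer core TGCAAAT, present in 3.16% of all promoters, and AAGGTCA, a sequence that ESRRB and NR5A2 can bind, present in 2.87%, matched at 0 of the 10. A match describes letters in this window and does not show binding.

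Coverage is given as the pileup, the number of reads or fragments stacked at the summit, solved from the authors' deposited fold enrichment and −log10 p of each peak. Fold enrichment compares that summit with the background of its surroundings. The lowest background, a gauge of depth, was 1.79 in primed and 1.96 in hTBLC, and all ratios of hTBLC to primed were scaled by it. Among regions, the strongest means the one of highest fold in its library, while at a gene start the region of highest pileup was taken. Median pileups over all peaks were 18 and 17. With this scaling the median log2 ratio over all 139523 regions matched 1 to 1 was −0.13, where an unscaled ratio has a median of 0, so every log2 ratio below is to be read against −0.13. As a check of the label, regions within 1 kb of a gene end were present for 6 of 6 pluripotent stem cell markers in primed and 5 of 6 in hTBLC. Such regions were also present for 5 and 4 of 6 trophectoderm markers, 5 and 6 of 6 endoderm markers, and 4 and 6 of 6 fibroblast markers. Open gene ends therefore did not separate cell types.

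Coverage at the markers did differ between the libraries. Of the 3 pluripotent stem cell markers with a listed start, CRIPTO (pileup 83 in primed and 17 in hTBLC, scaled ratio 0.187) and NANOG (35 and 21, 0.548) were lower in hTBLC, and SOX2 (116 and 85, 0.669) did not pass a 1.5-fold difference. Their median log2 start ratio was −0.87. The trophectoderm marker GATA3 (67 and 112, ratio 1.53) and PDGFRA of the endoderm list (67 and 117, ratio 1.59) were higher. Other trophectoderm starts varied: GATA2 (54 and 56, ratio 0.947) did not pass 1.5-fold, and TP63 had a region in primed alone (19). TFAP2A (58 and 23) and CDX2 (26 and 34) had no ratio because their strongest regions did not overlap. In the endoderm list GATA6 (19 and 37) had no ratio either, and HNF4A had a region in hTBLC alone (11). At matched regions within 50 kb the median log2 ratio was −0.22 for the pluripotent list, −0.22 for trophectoderm, −0.06 for endoderm and 0.13 for fibroblast markers. Near the fibroblast markers 8.16% of regions were at or above 2 and 2.04% at or below 0.5, against 6.80% and 12.0% of all matched regions. The part of other cells in the results below was not tested.

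Most of the naive genes with a listed start were open there in both libraries, and coverage at the TFCP2L1 start was lower in hTBLC. Of the 6 genes with a listed start, 4 had a region within 1 kb of a start in both libraries (TFCP2L1, ESRRB, PRDM1 and VENTX), 2 in primed alone (NR5A2 and ALPG) and 0 in hTBLC alone. Over all 15812 protein-coding genes with a listed start, 79.3% were open in both libraries, 2.90% in primed alone, 2.25% in hTBLC alone and 15.5% in neither. Each gene was called by the start region with most coverage. TFCP2L1 was lower in hTBLC, and ESRRB, PRDM1 and VENTX did not pass a 1.5-fold difference with an interval clear of 1. That made 1 of 4 lower, against 9.54% of the 11822 genes with a ratio, and 0 of 4 higher, against 8.57%. ESRRB start 1, which had less coverage than start 3 and was not the one called, did pass as lower (0.616, 0.377 to 0.992).

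TFCP2L1 lies on the minus strand at chr2:121216587-121285202 and encodes a transcription factor at the centre of the naive network. The region over its start had a pileup of 63 in primed (95% Poisson interval 48.4 to 80.6) and 31 in hTBLC (21.1 to 44). The scaled ratio was 0.449 (0.283 to 0.701), and 0.492 without scaling, which placed TFCP2L1 at percentile 2.86 of all gene starts with a ratio. The region itself was of similar extent in both libraries, chr2:121284318-121285550 in primed and chr2:121284231-121285622 in hTBLC.

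ESRRB, an orphan nuclear receptor, spans chr14:76310777-76501837 on the plus strand and has 3 listed starts. At start 3, position 76376137, the pileup was 63 in primed (48.4 to 80.6) and 90 in hTBLC (72.4 to 111), for a scaled ratio of 1.30 (0.935 to 1.83). At start 1, position 76310777, the order was the other way, with 46 in primed (33.7 to 61.4) and 31 in hTBLC (21.1 to 44) and a ratio of 0.616 (0.377 to 0.992). The interval at start 1 reaches past 1 without scaling (0.413 to 1.09), and that at start 3 leaves 1 (1.02 to 2.004). Start 2 had no region in either library. So the internal start 3 carried most coverage of the ESRRB starts in both libraries. In hTBLC it was also the strongest region by fold of the whole ESRRB neighbourhood, at 16.2-fold over background.

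VENTX, at chr10:133237855-133241928 on the plus strand, had a pileup of 32 at its start in primed (21.9 to 45.2) and 51 in hTBLC (38 to 67.1). The scaled ratio of 1.46 (0.918 to 2.34) was the highest of the gene starts shown, at percentile 88.9 of all genes, and its interval included 1. Without scaling it was 1.59 (1.005 to 2.563) and would count as higher.

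PRDM1 has a gene body of chr6:105992690-106109938 on the plus strand, and its 2 listed starts lie far inside it. Start 1, at 106086336, had the highest primed coverage of any naive gene start, 79 (62.5 to 98.5), and 64 in hTBLC (49.3 to 81.7), a scaled ratio of 0.740 (0.524 to 1.04). Start 2, at 106098941, had 25 in primed (16.2 to 36.9) and 39 in hTBLC (27.7 to 53.3), a ratio of 1.43 (0.841 to 2.46). The starts leaned in opposite directions and both intervals included 1.

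NR5A2, a nuclear receptor that acts in the early embryo and in liver, spans chr1:200027710-200177415 on the plus strand. Near start 1 only primed had a region, with a pileup of 26 (17 to 38.1) and its summit 1056 bp past the start. Near start 2 again only primed had a region, with 47 (34.5 to 62.5), its summit 924 bp before the start and a low fold of 2.20. Both summits lie near the edge of the 1 kb window. Just outside it both libraries were open: 1467 bp past start 1 the pileups were 59 and 45, and 1879 bp before start 2 they were 67 and 116, a scaled ratio of 1.58 (1.16 to 2.17). With a window of 2.5 kb NR5A2 therefore counts as open in both.

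At ALPG, chr2:232406844-232410714 on the plus strand, primed had a region of pileup 9 (4.12 to 17.1), chr2:232406632-232406831, and hTBLC had none. The region lies within the promoter printed above, its summit 114 bp before the start, and at a −log10 q of 3.01 it was among the weak ones. ALPG has near-identical neighbours, ALPP and ALPI, and how reads shared by these copies were placed is not given in the sources used here. SUSD2, chr22:24181487-24189106, was open at both gene ends in both libraries. At the lower end the pileups were 26 and 25, a scaled ratio of 0.878 (0.486 to 1.58), and at the upper end 49 and 30, a ratio of 0.559 (0.343 to 0.899). OLAH, chr10:15032195-15073853, had no region within 1 kb of either end in either library.

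**Figure D1:**
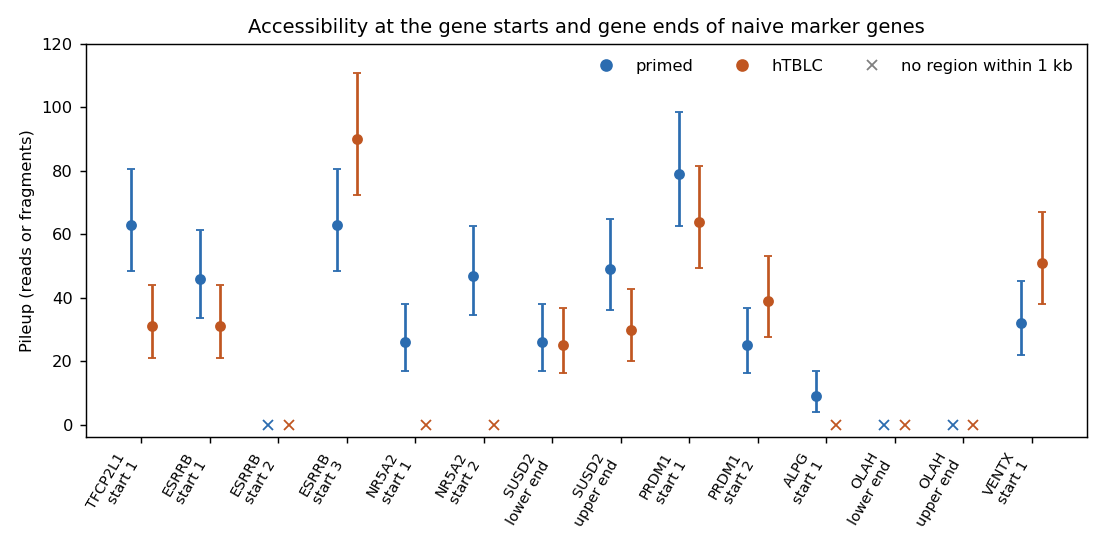
Pileup of the region with most coverage within 1 kb of each listed start, or of each gene end for SUSD2 and OLAH, in the primed and the hTBLC library, with exact Poisson 95% intervals as bars. TFCP2L1 stands at 63 in primed and 31 in hTBLC, whereas ESRRB start 3 and VENTX are higher in hTBLC with overlapping intervals.

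Most shared regions near the naive genes had lower coverage in hTBLC. Of the 102 regions matched 1 to 1 near the 8 genes, 77 had a scaled ratio under 1 and 25 over 1. That is 75.5% under 1, against 56.5% of all 139523 matched regions. The median log2 ratio was −0.41 (quartiles −0.73 and −0.01) near the 8 genes, against −0.13 (quartiles −0.63 and 0.36) over all and −0.13 over the 103668 near any protein-coding gene. Unscaled, the medians were −0.28 and 0, with 71 of the 102 under 1 (69.6%, against 47.6% of all).

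Of the 102, 17 were at or below 0.5 with an interval under 1, which is 16.7% against 12.0% of all matched regions. Those at or above 2 numbered 3, or 2.94% against 6.80%. With 1 library per state, whether this lean exceeds the variation between cultures cannot be told. The local background at the 102 regions had a median ratio of hTBLC to primed of 0.978, against 1.09 over all, and its part in the lean was not tested. Medians were below −0.13 for regions in the bodies of the naive genes (45 regions, −0.33) and between genes (37, −0.39). The same held in the bodies of other genes (11, −0.66) and at the naive genes' own starts (6, −0.71). Those 6 include neighbouring regions at ESRRB start 1, and leave out VENTX and PRDM1 start 2, whose regions were not matched 1 to 1. With 1 start region per gene, the 4 genes with a start ratio had a median log2 ratio of −0.03, against 0.03 over all 11822 genes.

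**Figure D2:**
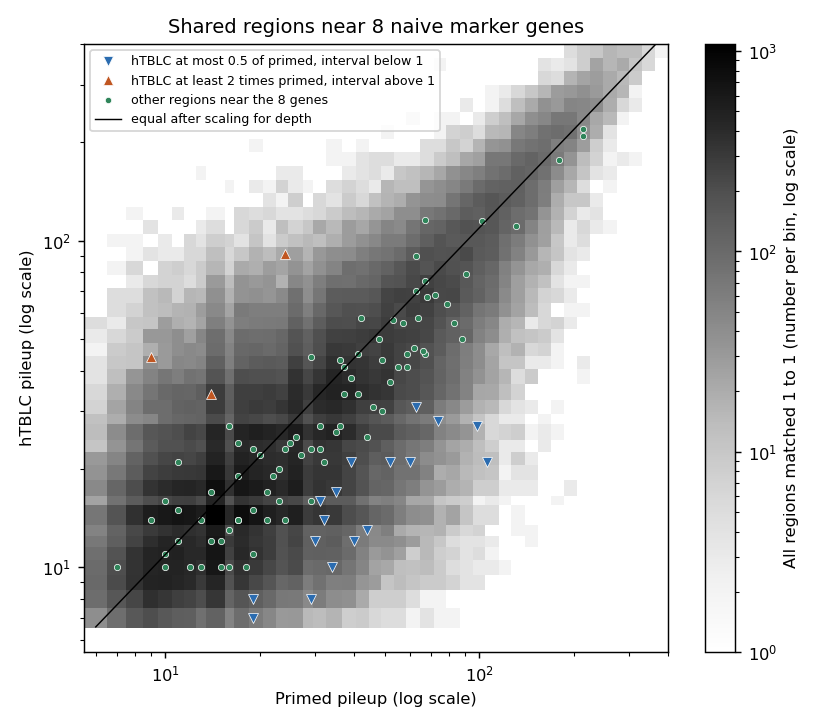
Pileup in primed (horizontal, log scale) against hTBLC (vertical, log scale) for the 102 matched regions near the 8 genes, over the density of all 139523 matched regions in grey. Of the coloured triangles, 17 lie at or below 0.5 and 3 at or above 2, and the line marks equality after scaling.

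By gene, the median log2 ratio ran from −0.93 at VENTX (6 regions) through −0.68 at SUSD2 (10), −0.44 at ESRRB (26), −0.41 at TFCP2L1 (8), −0.41 at PRDM1 (19) and −0.34 at OLAH (8) to −0.15 at both NR5A2 (14) and ALPG (11). Over the 18368 protein-coding genes with at least 3 matched regions the median of such medians was −0.17. VENTX stood at percentile 1.61 of these genes and SUSD2 at 6.48, while NR5A2 and ALPG stood near the middle at 51.6 and 51.4. Neighbours in this order such as ESRRB, TFCP2L1 and PRDM1 differed by far less than the spread of their own regions.

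Around TFCP2L1, 2 regions of the gene had lower coverage in hTBLC and 1 distal region had higher coverage. The start region described above was 1 of the lower ones. The other, chr2:121264286-121264725, lay in the gene body 20618 bp past the start and had 32 in primed and 14 in hTBLC, a ratio of 0.400 (0.197 to 0.770). The higher one, chr2:121185582-121186058, lay beyond the 3′ end, 99471 bp from the start, and had 9 in primed and 44 in hTBLC, a ratio of 4.47 (2.15 to 10.4), the highest of the 102. Its summits in the libraries were 264 bp apart, and its local background was also 2.33 times as high in hTBLC.

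The strongest TFCP2L1 region by fold in both libraries, chr2:121297391-121297819, lies 12447 bp before the start and had 57 and 56, a ratio of 0.897 (0.609 to 1.32). The strongest primed-only region, chr2:121196175-121196951, had 57 (43.2 to 73.9) at 12.0-fold, with the nearest hTBLC region 355 bp away. The strongest hTBLC-only one, chr2:121309806-121310357, had 13 at 4.73-fold. At TFCP2L1 the start was thus lower in hTBLC, while the interval of the strongest upstream region included 1.

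ESRRB had the most regions of the 8 genes, 49 in primed and 42 in hTBLC, and 22 of its 26 matched regions had a ratio under 1, where 56.5% of all matched regions do. Inside the gene, chr14:76330417-76330927 had 44 in primed and 13 in hTBLC, a ratio of 0.270 (0.133 to 0.510), and chr14:76473451-76474195 had 52 and 21, a ratio of 0.369 (0.211 to 0.623). The strongest primed region by fold, chr14:76386952-76387515, lies 11187 bp past start 3 and had 88 and 50, a ratio of 0.519 (0.359 to 0.743) at 21.0-fold in primed. Against these, 1 region in the gene body stood out in the other direction: chr14:76348871-76349288, 22214 bp before start 2, had 24 in primed and 91 in hTBLC, a ratio of 3.46 (2.19 to 5.68). Its local background was 1.52 times as high in hTBLC.

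The strongest primed-only region near ESRRB, chr14:76373485-76373743, had 34 and lies 2344 bp past start 2. The strongest hTBLC-only one, chr14:76509787-76510513, had 24 and began 117 bp from a primed region, so it borders a site open in both. In the ESRRB locus hTBLC was therefore higher at 1 and lower at 2 of the 26 matched regions by the 2-fold call, and the other 23 did not pass it. The local background at the 26 had a median ratio of hTBLC to primed of 0.812, and its part was not tested.

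NR5A2 was the locus with no matched region past 2-fold in either direction. Its strongest region in both libraries, chr1:200048077-200048806, lies 5814 bp past start 2 and had 214 and 209, a ratio of 0.892 (0.734 to 1.08). A further region of the gene, chr1:200038664-200039812, had 214 and 219, a ratio of 0.935 (0.771 to 1.13). These were the highest pileups of the 102. The strongest primed-only region, chr1:200053594-200054088, had 20, and the strongest hTBLC-only one, chr1:200166504-200166762, had 19.

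All 10 matched regions near SUSD2 were under 1, with or without scaling, and it was the only one of the 8 genes where this held. The lowest, chr22:24133128-24133534, lies in the body of the neighbouring gene CABIN1 and had 29 in primed and 8 in hTBLC, a ratio of 0.252 (0.0995 to 0.565). Near the lower gene end, chr22:24178533-24178949 had 31 in primed and 16 in hTBLC, a ratio of 0.471 (0.241 to 0.889). The strongest region in both libraries, chr22:24156473-24157565, also in CABIN1, had 131 and 111, a ratio of 0.774 (0.596 to 1.004). All matched regions of chromosome 22 had a median log2 ratio of −0.31, lower than on the other chromosomes that carry these genes (−0.13 to −0.10), and the local background at the SUSD2 regions was 0.852 times that of primed. The part of either in the SUSD2 values was not tested. The strongest library-only regions by fold were chr22:24140412-24140649 in primed, with 12, and chr22:24200742-24200968 in hTBLC, with 11. By pileup the highest primed-only region was chr22:24145895-24146138, with 21, beside a shared region in CABIN1.

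Near PRDM1, 4 of 19 matched regions were at or below 0.5 and 1 at or above 2. All 4 lower regions lay outside the gene. Upstream, chr6:105949990-105950522 had 34 in primed and 10 in hTBLC, a ratio of 0.269 (0.118 to 0.556). Beyond the 3′ end, chr6:106154353-106154685 had 40 in primed and 12 in hTBLC, a ratio of 0.274 (0.131 to 0.533), with chr6:106155292-106155623 (19 and 8, ratio 0.385) close to it and chr6:106140667-106140986 (35 and 17, ratio 0.444) nearer the gene.

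Inside PRDM1 the higher region, chr6:106046552-106046785, had 14 in primed and 34 in hTBLC, a ratio of 2.22 (1.16 to 4.47). The strongest hTBLC region by fold, chr6:106051170-106051746, had 63 and 70, a ratio of 1.02 (0.712 to 1.45), and in primed the strongest was start 1. The strongest primed-only region, chr6:106002065-106002346, had 22. The strongest hTBLC-only regions by fold, chr6:106135195-106135514 and chr6:105945726-105946039, both had 14. By pileup the highest hTBLC-only region was chr6:106085408-106085655, with 30, its summit 796 bp before start 1 and the nearest primed region 429 bp away. Another hTBLC-only region, chr6:106097727-106098277, with 12, had its summit 791 bp before start 2. The lower regions of PRDM1 were thus in its flanks, and no matched region of the gene body was at or below 0.5 with an interval under 1.

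At ALPG 2 regions on the 3′ side had lower coverage in hTBLC. The strongest primed region, chr2:232432593-232433410, 25967 bp past the start, had 98 in primed and 27 in hTBLC, a ratio of 0.252 (0.158 to 0.389), with its fold at 15.8 and 7.25. Nearer the gene, chr2:232418620-232419779 had 39 in primed and 21 in hTBLC, a ratio of 0.492 (0.275 to 0.857), where the local background was 0.450 times that of primed. Its fold over background was not lower in hTBLC, at 3.39 in primed and 3.75 in hTBLC. The primed-only region chr2:232422953-232423845, with 53, lies between them. On the 5′ side the strongest hTBLC region, chr2:232365606-232365921, had 72 and 68, a ratio of 0.863 (0.610 to 1.22), and the strongest hTBLC-only region, chr2:232369837-232370336, had 35.

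OLAH itself was sparsely covered. Inside the gene, chr10:15034983-15036067 had 48 and 50, a ratio of 0.951 (0.627 to 1.44), and chr10:15069232-15069602 had 19 and 7, a ratio of 0.337 (0.120 to 0.836). The strongest primed-only region, chr10:15027243-15027513, had 26 and lies 4813 bp below the lower gene end, with no hTBLC region within 5921 bp. The strongest hTBLC-only one, chr10:15021056-15021322, had 15. The strongest region of the window by fold, in both libraries, lies at the start of the neighbour ACBD7, which had 180 and 177, a ratio of 0.898 (0.726 to 1.11), and the start of RPP38 had 102 and 115, a ratio of 1.03 (0.782 to 1.36). Past them, chr10:15112722-15112999 had 30 in primed and 12 in hTBLC, a ratio of 0.365 (0.170 to 0.735).

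The VENTX neighbourhood held the lowest ratio of the 102. At the start of the neighbouring protease gene ADAM8, chr10:133276441-133277426 had 106 in primed and 21 in hTBLC, a ratio of 0.181 (0.108 to 0.291), with a local background 0.593 times that of primed. Between the genes, chr10:133257404-133258301, 20073 bp past the VENTX start, had 74 in primed and 28 in hTBLC, a ratio of 0.346 (0.215 to 0.540). In the body of KNDC1 on the other side, chr10:133219590-133220631 had 60 in primed and 21 in hTBLC, a ratio of 0.320 (0.185 to 0.533), with summits 218 bp apart. The local background there was 0.4895 times that of primed. The strongest region in both libraries, chr10:133247021-133247828, 9344 bp past the start, had 91 and 79, a ratio of 0.793 (0.579 to 1.08). So 3 of 6 matched regions around VENTX were lower in hTBLC past 2-fold, while the interval at its start included 1. The start region was not matched 1 to 1, so it is not among the 6 or in their median. The local background at the 6 had a median ratio of hTBLC to primed of 0.838, and its part was not tested.

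At the start of UTF1, a pluripotency gene next to VENTX, primed alone had chr10:133229217-133229746, with 38. There hTBLC alone had chr10:133230420-133230619, with 18, the strongest hTBLC-only region of the VENTX window. The strongest primed-only region of the window by fold was chr10:133197344-133197627, with 27, in KNDC1.

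**Figure D3:**
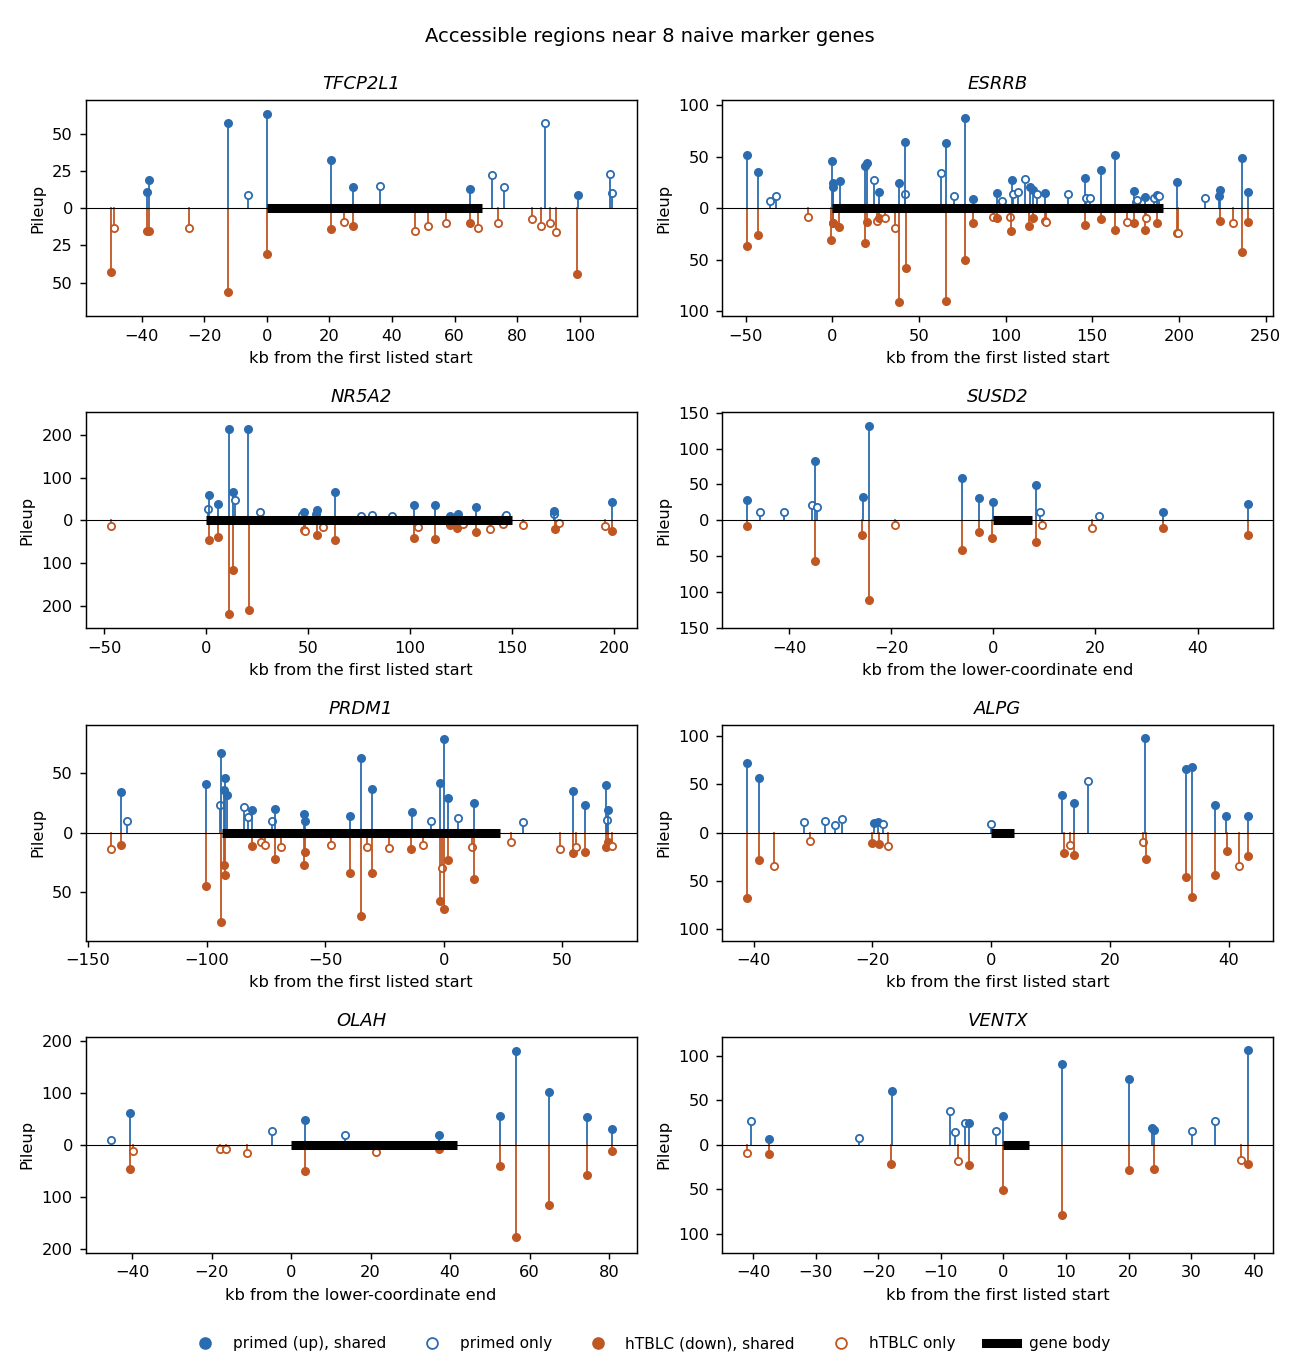
Regions of each locus by distance from the gene start (for SUSD2 and OLAH, from the lower gene end), with pileup drawn upward for primed and downward for hTBLC, filled circles for shared and open circles for library-only regions. The tallest stems, at NR5A2 and near OLAH, are level between the libraries, while the ADAM8 start at the VENTX locus is 106 in primed and 21 in hTBLC.

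Regions present in 1 library only were about even in number. Near the 8 genes 69 regions were primed-only, 37.5% of the primed regions there against 37.3% of all primed regions. Those that were hTBLC-only numbered 64, or 35.4% of the hTBLC regions there against 39.2% of all. Of the 133 library-only regions 48.1% were hTBLC-only (95% Wilson interval 39.8 to 56.5), against 48.9% near any protein-coding gene and 52.15% over all regions. The median pileup was 12 in either set, so most lay near the detection limit.

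Among the few stronger regions near the 8 genes primed-only ones were more numerous, and whether this exceeds counting error was not tested. With a −log10 q of at least 10 there were 13 primed-only and 5 hTBLC-only regions near the 8 genes, whereas over all regions the same limit gave 13428 and 11999, of which 47.2% were hTBLC-only. The excess of hTBLC-only regions at TFCP2L1 (12 against 7 primed-only), PRDM1 (14 against 9) and OLAH (5 against 3) rested on weak regions. When both lists were first limited to a −log10 q of at least 10, the counts were 1 against 5 at TFCP2L1, 2 against 7 at PRDM1 and 0 against 4 at OLAH. In these counts a shared region whose partner fell below the limit counts as library-only. At OLAH this holds for chr10:15069232-15069602 and chr10:15112722-15112999. At PRDM1 it holds for every counted region but the primed-only chr6:106002065-106002346. At TFCP2L1 it holds for the counted hTBLC region, chr2:121185572-121186199, and in primed for chr2:121264286-121264725 and chr2:121322864-121323180. At ESRRB primed-only regions were the more numerous (19 against 11), as at VENTX (8 against 3), SUSD2 (6 against 3) and, by 1, ALPG (7 against 6), and at NR5A2 they numbered 10 in each. At ALPG the order turned under the limit of 10, to 3 hTBLC-only and 2 primed-only, and at NR5A2 it was 2 and 1. Without the limit, hTBLC-only less primed-only regions placed ESRRB at percentile 3.56 of all 19974 protein-coding genes, VENTX at 11.7 and SUSD2 at 24.7. ALPG stood at 45.9, NR5A2 at 59.3, OLAH at 79.8, and TFCP2L1 and PRDM1 both at 93.2.

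**Figure D4:**
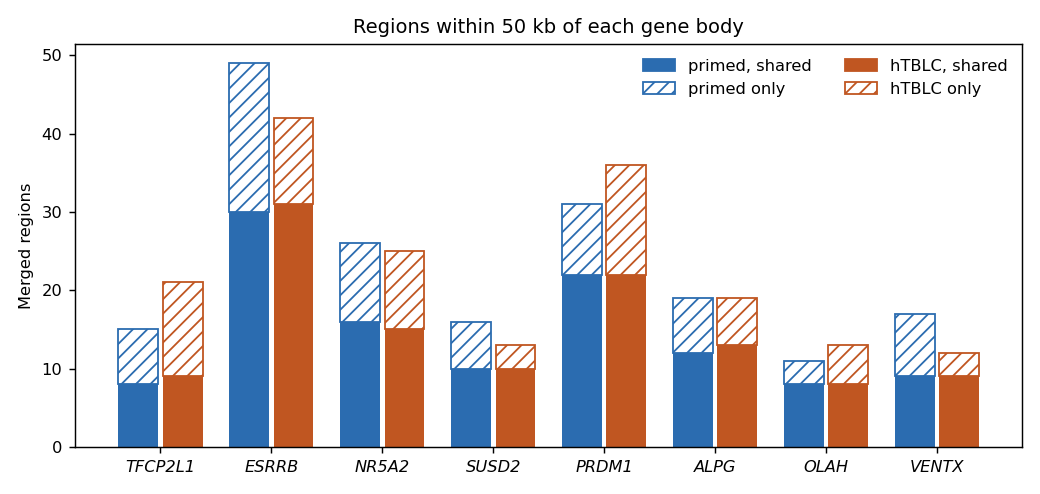
Number of primed-only, shared and hTBLC-only regions within 50 kb of each gene. ESRRB has the largest primed-only count at 19 and PRDM1 the largest hTBLC-only count at 14.

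A list of 20 other naive genes was read the same way. Of the 14 with a listed start, 8 were open in both libraries, 2 in primed alone (KLF17, a factor of the naive state, and ALPP), 1 in hTBLC alone (DPPA3, a maternal-effect gene, with a pileup of 11) and 3 in neither (ALPI, ZFP42 and DPPA5). Among 6 with a ratio, 2 were lower: CPT1A, the carnitine transferase of fatty acid import, at 61 and 15 (ratio 0.225, interval 0.119 to 0.400), and KHDC3L, a maternal-effect gene, at 21 and 9 (0.391, 0.158 to 0.891). The receptor gene IL6ST was higher, at 150 and 257 (1.56, 1.27 to 1.93). Over all genes with a ratio 9.54% were lower and 8.57% higher, and 79.3% of all genes with a listed start were open in both libraries. The median log2 ratio of the 135 matched regions near these genes was −0.15, with 11.9% at or below 0.5 and 2.22% at or above 2. Over all matched regions these shares were 12.0% and 6.80%.

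Of 20 primed marker genes, 14 had a listed start and all 14 were open in both libraries, against 79.3% of all genes. Among 13 with a ratio, OTX2 (44 and 24, ratio 0.498, 0.290 to 0.837) and the growth factor gene FGF2 (117 and 62, 0.484, 0.350 to 0.664) were lower. VIM (69 and 136, ratio 1.80), SALL2 (30 and 53, 1.61) and PTPRZ1 (131 and 228, 1.59) were higher. That made 2 of 13 lower, against 9.54% of all genes with a ratio, and 3 of 13 higher, against 8.57%. The median log2 start ratio of the 13 was 0.33, against 0.03 over all 11822 genes. The 278 matched regions near the primed markers had a median of −0.13, with 14.4% at or below 0.5 and 5.76% at or above 2, against 12.0% and 6.80% of all. Medians at matched regions were thus −0.41 near the 8 genes, −0.15 near the other naive genes and −0.13 near the primed markers, and whether the lists differ was not tested.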

How the data were processed

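Per the submitters' processing notes, Bowtie2, Picard, MACS2 and the build hg38 were used. The sources used here give no versions, settings, read shifting, duplicate handling or read totals. The authors deposited 1 peak list per library, each called separately, with positions and summit offset in bp, a score, a fold enrichment over local background, −log10 p-values and −log10 q-values. The deposited score was not used, and the authors' fold and −log10 values served to rank and filter peaks within a list.

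For each peak the pileup and background were solved from the authors' fold ratio and −log10 p, with a tolerance of 0.001 in −log10 p (99.999% of primed and 99.998% of hTBLC peaks solved). The lowest deposited −log10 p was 2.00 in primed and 2.83 in hTBLC, which limits what counts as absent, and 252 and 327 ranks had no line. Regions on chromosomes 1 to 22 and X were merged peaks, shared at an overlap of 1 bp. Ratios carry exact binomial, pileups exact Poisson and shares Wilson 95% intervals, all for counting error only, since reads are not independent molecules. A match 1 to 1 means that each region overlaps only the other. A region called lower or higher passed 2-fold (starts 1.5-fold) with an interval that excludes 1.

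Gene bodies, promoters and motifs came from RefSeq tables of GRCh38.p14; exons and introns were not used here. In each window the rule named the start region, the strongest region per library, the strongest library-only regions by fold and all matched regions past 2-fold; other regions were chosen after their values were seen. Members and gene lists were chosen with earlier results of these data known. Alternatives were other windows, overlaps, gaps, thresholds, scaling and leaving out each gene. The solution and matching were tested on simulated data. Python 3.11.15, numpy 2.4.6, pandas 2.3.3 and scipy 1.17.1 were used.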

Additional observations from a re-analysis of the deposited data

How the results depend on the processing

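The median log2 ratio near the 8 genes stayed between −0.43 and −0.24 under every alternative run. Counts of library-only regions by gene changed order at TFCP2L1, PRDM1, OLAH and ALPG under stricter limits. The share of hTBLC-only among library-only regions, 48.1%, was 32.5% when both lists were limited to a −log10 q of 5 or more, 25.6% at 10 or more and 18.2% in the top 50000 regions by fold, where all regions gave 45.8%, 47.0% and 49.98%. Under these limits a shared region whose partner was filtered out counts as library-only. The share was 50.4% when both lists began at the same −log10 p, where all regions gave 53.6%. In the main setting all regions gave 52.15%. Leaving out each gene in turn, chosen after seeing the data, gave 45.5% (without PRDM1) to 51.5% (without ESRRB). The median log2 ratio near the 8 genes was −0.24 in the top 50000 regions, where all matched regions gave −0.099. It lay between −0.43 and −0.28 under the other alternatives. Over all matched regions the median was 0 unscaled, −0.13 at the −log10 q limit of 5 and −0.12 at that of 10. Of the 6 genes with a start, those open in primed alone numbered 1 at the first of these limits, 0 at the second, 1 with a 500 bp window and 1 with a 2.5 kb window. Those open in neither numbered 1, 2 and 3 at the limits of 5 and 10 and in the top 50000, and 1 with the 500 bp window, and those open in both numbered 1 in the top 50000. No paired analysis was possible because there was 1 library per state. Depth was known only through the background level, and a region of pileup under 6 in primed or 7 in hTBLC is not listed. The hTBLC list also ends at a higher lowest −log10 p than the primed list. Where the local background is high, a region needs a higher pileup to reach the same −log10 p. An absent region is therefore one not listed, and whether weaker coverage was present there was not tested.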
